A study of Homo sapiens with 2 samples.

Results

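EXT1 is the gene described here, through the crosslink sites of the RNA-binding protein hnRNPM on its transcript. Its sites were taken as the listed sites on the minus strand of chromosome 8 whose middle falls in the span of the gene (GRCh37, 118.807 to 119.124 Mb), which is 317330 nt long and is transcribed from its high coordinate to its low one. This gave 144 of the 54373 sites in the list, or 0.265%. The gene was picked because its sites were known to be dense in this same list, so site numbers, heights and spacing are given as a description, with no test. The sites were mapped by iCLIP, in which ultraviolet light fixes a protein to the RNA it touches and reverse transcription tends to stop at the fixed base. The cells were HMLE, an established line of immortalised human breast epithelial cells, of wild-type genotype, labelled DMSO, and hnRNPM was pulled down with an antibody after the crosslinking. The 2 libraries are labelled as biological replicates and form 1 group. The deposited list carries 1 value per site and names no library, so neither a spread between replicates nor a depth per library can be given.

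EXT1 encodes exostosin-1, a glycosyltransferase of the endoplasmic reticulum and Golgi that, together with EXT2, polymerises the chains of heparan sulfate, the sugar polymer of cell-surface and matrix proteoglycans that binds many growth factors. Inherited loss of either gene causes multiple osteochondromas, cartilage-capped bone tumours. hnRNPM is one of the heterogeneous nuclear ribonucleoproteins, acts in splice site choice and is known to bind GU-rich RNA, much of it in introns. EXT1 is a long gene made almost entirely of intron. In GENCODE release 29, which is on GRCh38, the gene is 317364 nt long, and its coding transcript has 11 exons that add up to 8270 nt, or 2.61% of the gene. Its intron 1 alone is 273 kb, or 86.0% of the gene, and the longest of the other introns is 7.63 kb. These are lengths on another genome build, and no site was assigned to an exon or an intron.

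Each site is 21 nt wide and carries a score deposited by the authors, a whole number, called the height below and read as the number of reads that stop at the site. The site's name also holds a tag cluster (a group of overlapping reads), an expected height with 1 value per cluster, and a P value. The file does not define these fields, and the readings given here are inferred from their form. Levels of the RNA itself were not measured here, so a tall or dense region cannot be told apart from a region with much RNA.

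Sites lay along nearly the whole gene, but mostly in its promoter-side part. The first site was 2.61 kb from the promoter-side end of the span and had a height of 32. The last was 297 kb from it, 20.7 kb before the 3′ end of the gene, with a height of 16. In the first 130 kb every bin of 10 kb held sites, between 5 and 12 each. These 13 bins held 105 sites, or 72.9% of all. From 130 to 230 kb there were 35 sites, of which 15 were in the bins from 170 to 190 kb, and beyond 230 kb there were only 4. Of the 32 bins, 7 held no site, all of them beyond 190 kb.

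The promoter-side 50% of the length held 112 sites, or 77.8% (95% Wilson interval 70.3 to 83.8, counting error only, with sites taken as independent), and the other 50% held 32 sites. The middle site in order lay 94.8 kb from the promoter-side end, at 29.9% of the gene's length. Split into 4 equal lengths of the gene from the promoter side, there were 60, 52, 28 and 4 sites. The corresponding densities were 7.56, 6.55, 3.53 and 0.504 sites per 10 kb, with 4.54 over the whole span. The site number thus was lower at each step towards the 3′ end. For summed height the shares in the same order were 52.4%, 32.4%, 14.2% and 1.10%.

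**Figure D1:**
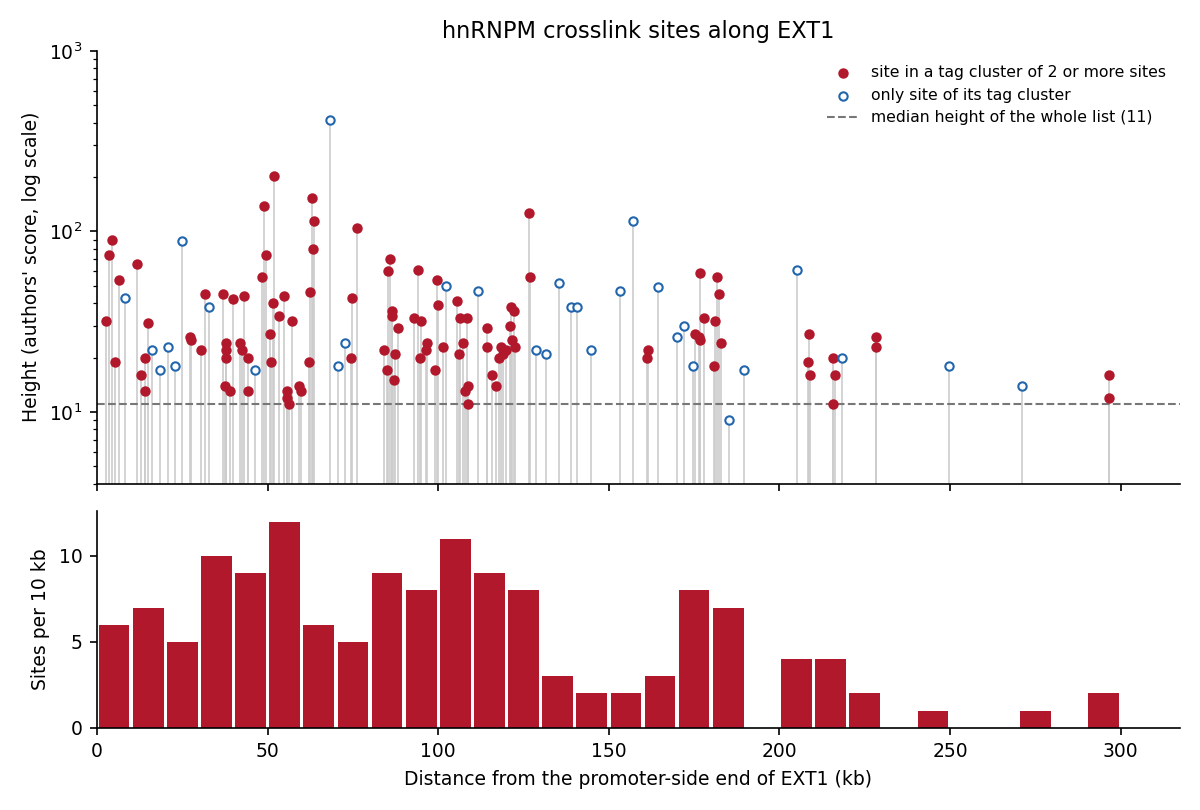
Height of each of the 144 sites (upper panel, log scale, 1 point per site, filled red for sites that share a tag cluster and open blue for sites alone in theirs) and number of sites per 10 kb (lower panel, bars) against the distance in kb from the promoter-side end of EXT1. All 13 bins of the first 130 kb hold at least 5 sites, and only 4 sites lie beyond 230 kb.

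No listed site lay close to the gene outside its span. The lowest height inside the gene was 9. Past the promoter-side end, the next site on the strand was 160 kb away, with a height of 6. Past the 3′ end, the next site on the strand was 921 kb away, with a height of 43. There were 0 sites on the plus strand inside the span, and the nearest was 268 kb from it. The 144 sites made up 8.33% of the 1729 sites on the minus strand of chromosome 8.

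Sites in EXT1 were tall. Their median height was 24.5 (quartiles 19 and 43, range 9 to 414), against a median of 11 in the whole list (quartiles 8 and 17, range 4 to 1969). In EXT1, 140 of 144 sites (97.2%) were above the list's median, against 49.0% of the whole list. A height of at least 25 was reached by 72 sites in EXT1 (50%), against a background of 12.8% in the list. At least 50 was reached by 26 sites (18.1%), against 2.60% in the list, and at least 100 by 8 sites (5.56%), against 0.353%. With 0.265% of the sites, EXT1 held 0.641% of the list's summed height, 5473 of 854261. EXT1 was chosen from this list, so nothing is read from these contrasts beyond their size.

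The tallest site stood alone in its tag cluster, from 119055635 to 119055655, 68.4 kb from the promoter-side end. Its height was 414, which made it the 17th tallest site of the list and 2.04 times the second tallest of the gene. By itself it held 7.56% of the gene's summed height. Its expected height, 9.24, was the highest in EXT1, a value reached or passed by only 28 sites of the list. The site before it was 4901 nt upstream.

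The second tallest site, with a height of 203, lay from 119072253 to 119072273, 51.8 kb from the promoter-side end. A site of height 138 lay 48.9 kb from that end, in the same tag cluster. The sites of height 153 and 114, at 62.9 and 63.5 kb, shared another cluster. The 4 tallest sites of the gene thus all lay in 19.5 kb.

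The rest of the 10 tallest sites were spread over the promoter-side 50% of the gene. A site of height 89 lay 4.44 kb from the promoter-side end and one of 88 at 24.8 kb. A site of height 104 at 76.1 kb had the highest ratio of height to expected height in EXT1, 91.2. The last of these sites were one of height 126 at 127 kb and one of 114 at 157 kb. All 10 thus lay in the promoter-side 50%, where 77.8% of all sites lay. Together they held 28.2% of the summed height, and 31 sites were needed to reach 50% of it.

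Median height changed little along most of the gene, while the upper quartile went down. The median height was 25.5, 27, 24.5 and 15 in the 4 equal lengths from the promoter side, the last from 4 sites. The upper quartile in the same order was 45.2, 38.2, 30.5 and 16.5. The lowest heights there were 11, 11, 9 and 12, and the highest 414, 126, 61 and 18. The highest height and the upper quartile therefore went down along the gene. The median height stayed nearly level over the lengths that held 140 of the 144 sites. The lengths held 60, 52, 28 and 4 sites, and a highest value tends to be lower among fewer sites. Nothing is read from the fall of the highest value, and the fall of the upper quartile was not tested. Spearman's rho between height and distance was -0.12 over the 144 sites, which share libraries and, in part, tag clusters. It is given as a description.

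Expected height was high in EXT1. Its median over the sites was 1.27 (range 0.32 to 9.24), 2.49 times the list's median of 0.51. In the 4 equal lengths from the promoter side it was 1.31, 1.33, 0.915 and 0.65, and its rho with distance was -0.32. The ratio of height to expected height had a median of 23.3 in EXT1 (quartiles 15.3 and 36.3), against 23.7 in the list (quartiles 18.3 and 30.6). This likeness is for all sites. With only the tallest site of each tag cluster kept, the median ratio was 36.1 in EXT1, against 26.1 in the list. That step can raise the ratio only through clusters of several sites. Clusters of 1 site made up 49.2% in EXT1, against 76.7% in the list. Part of the larger rise in EXT1 thus follows from the step itself, and nothing is read from it. The lowest ratios, 5.57 and 5.99, both belonged to sites of height 19, in the clusters that also held the sites of 203 and 153. The deposited P value was at its smallest value of 1e-100 for 72 EXT1 sites (50%), against 16.2% of the list, and reached 9.27e-04 at the largest in EXT1. Height alone did not decide which sites were at this smallest value. The 4 tallest sites of the gene were not at it, with values from 7.52e-13 to 6.00e-12. A site of height 126 at 127 kb was at it, and so was one of height 18 at 22.9 kb. In the cluster with the site of 203, the sites of 34, 40, 56, 74, 138 and 203 all had 1.95e-12. Its sites of 27 and 19 had 1.05e-10 and 3.31e-04. In the first cluster of the gene, the sites of 32, 54, 74 and 89 were at 1e-100. That of 19 had 1.86e-06. In both clusters the lowest site thus had the largest value.

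Most EXT1 sites came several to a tag cluster. The 144 sites fell into 63 clusters, of which 31 (49.2%) held 1 site, against 76.7% of clusters in the list. There were 113 sites (78.5%) in clusters of 2 or more, against 43.4% in the list. Clusters of at least 5 sites numbered 435 of the 40129 clusters in the list and 8 of the 63 in EXT1. These 8 held 53 of the EXT1 sites. EXT1 also had 2 of the list's 29 clusters of at least 9 sites. Sites that shared a cluster had a median height of 25 (quartiles 20 and 41), and the 31 that did not had one of 24 (quartiles 18 and 47). Over clusters, the median expected height was 1.10 for the 32 that held several sites and 0.93 for the 31 that held 1.

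The 8 clusters of at least 5 sites, singled out after their values were seen, differed in how height was shared out. In transcript order, the cluster that opens the gene, from 2.61 to 6.39 kb, had heights of 32, 74, 89, 19 and 54. The cluster from 48.3 to 53.3 kb had heights of 56, 138, 74, 27, 19, 40, 203 and 34. Its neighbour from 54.9 to 59.7 kb had 7 sites, with heights of 44, 12, 13, 11, 32, 14 and 13. These 2 adjacent clusters had expected heights of 3.41 and 1.05, a ratio of 3.25.

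The cluster that begins at 62.1 kb packed heights of 19, 46, 153, 80 and 114 into 1396 nt. There were 2 clusters of 9 sites. The one from 84.1 to 88.2 kb had heights of 22, 17, 60, 70, 34, 36, 15, 21 and 29. The one that begins at 116 kb and covers 5809 nt had heights of 16, 14, 20, 23, 21, 22, 30, 38 and 25, with the tallest 2.71 times the lowest. Between them, the cluster from 106 to 108 kb had heights of 41, 21, 33, 24 and 13. Beyond the promoter-side 50% of the gene there was 1 such cluster, from 181 to 183 kb, with heights of 18, 32, 56, 45 and 24.

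**Figure D2:**
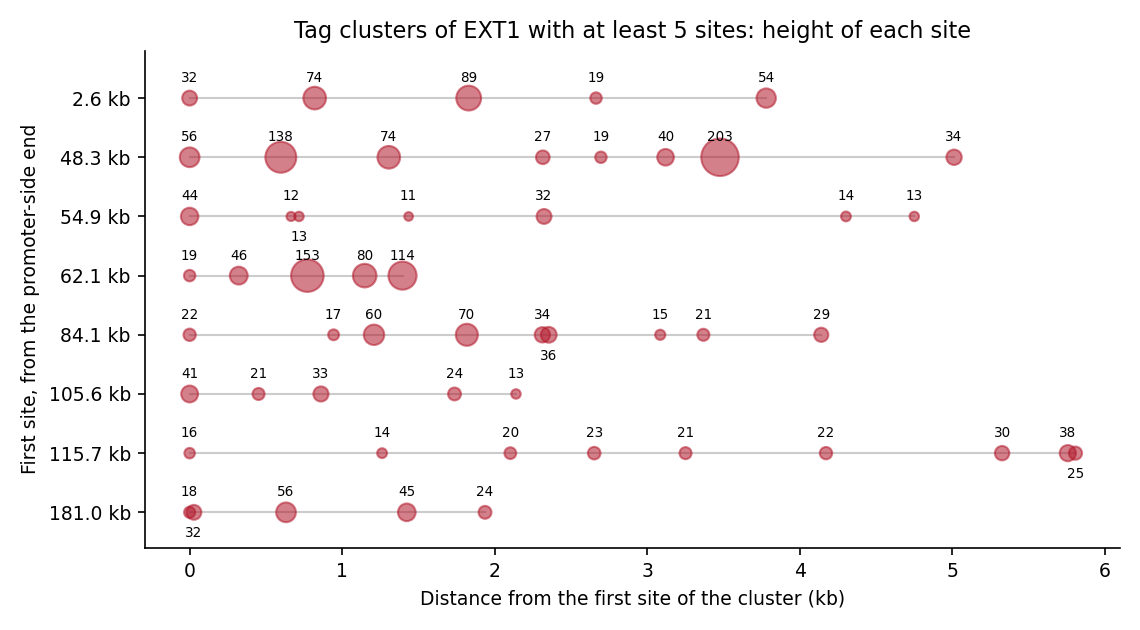
The 8 tag clusters of EXT1 with at least 5 sites, from the promoter side at the top to the 3′ side at the bottom, each drawn from its first site along the transcript (horizontal axis, kb). Circle area is proportional to height, and the number beside each circle is that height. The clusters that begin at 48.3 and 62.1 kb hold the sites of 203 and 153, and the heights of the cluster at 116 kb run only from 14 to 38.

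Spacing in EXT1 was short beside the whole list, with few long gaps before the 3′ part. The 143 gaps between neighbouring site middles had a median of 942 nt (quartiles 429 and 2194), against 1420 nt (quartiles 494 and 5250) for the 48028 gaps of at most 50 kb within stretches of 1 strand in the whole list. Gaps under 1 kb made up 51.7% in EXT1, against 41.7% in the list. Gaps over 5 kb made up 6.29% in EXT1, 9 gaps, against 25.8% in the list. Of these 9, only 2 ended in the promoter-side 50% of the gene. The 3 longest gaps were 25.6, 21.4 and 21.2 kb, and all lay beyond 228 kb, where they separated sites of height 12 to 23.

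The shortest gaps stood apart from the rest. There were 12 gaps under 60 nt, between 26 and 53 nt, and the next shortest was 142 nt. In the whole list too, no gap was much shorter than 26 nt, so that lower end is not particular to EXT1. The range from 60 to under 100 nt, with 0 gaps in EXT1, was sparse in the whole list too, at 0.877% of gaps. Of the longer gaps, 2 were under 200 nt, 28 were of 200 to under 500 nt, 50 of 500 to under 1500 nt and 42 of 1500 nt to 5 kb. The 12 close pairs made up 8.39% of the gaps, against 6.76% in the list, and both sites of each pair lay in 1 tag cluster. The site upstream on the transcript was the taller in 6 of them and the downstream one in the other 6. Their heights ran only from 11 to 38, so no site of the 10 tallest belonged to a close pair. One pair at 181 kb had 18 upstream and 32 downstream, and one at 121 kb had 38 upstream and 25 downstream.

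Runs of sites with gaps of at most 1 kb were mostly short. There were 70 such runs, 41 of them of 1 site. The 9 runs of at least 5 sites held 54 sites, and the longest, from 84.1 to 88.2 kb, was the cluster of 9 sites named above.

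**Figure D3:**
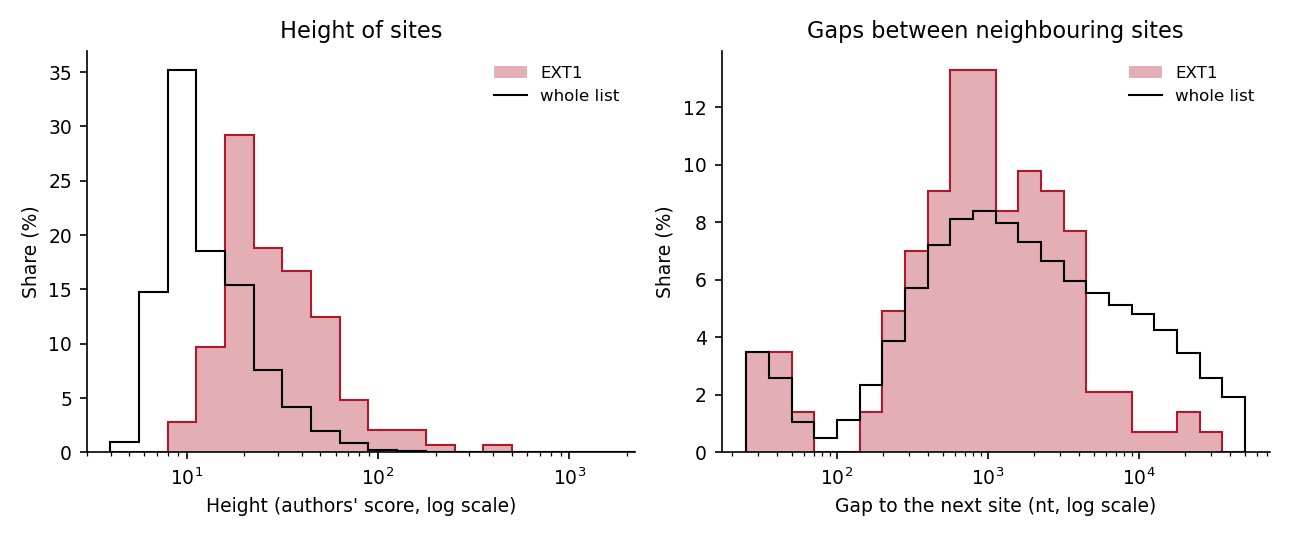
Share of sites by height (left, authors' score, log axis) and share of gaps by length (right, nt, log axis) for EXT1 (red, filled) and the whole list (black line). EXT1 lies to the right of the list in height, with medians of 24.5 and 11, and has fewer gaps over 5 kb, 6.29% against 25.8%.

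The numbering in the file gave a further view of the gene, though it comes from the same list and is not a separate check. Tag clusters carry numbers that rise along each strand of a chromosome, and sites carry running numbers that do the same. Both have missing values, read here as clusters and sites that were numbered but not listed, which the file does not state. Between the first and last EXT1 site there were 810 cluster numbers, of which 63 (7.78%) had a listed site. Over the same part there were 857 running numbers of sites, of which 144 (16.8%) were listed, against a background of 24.2% in the whole list.

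The numbers of clusters and of sites ran in opposite directions along EXT1. In the 4 equal lengths from the promoter side, cluster numbers came at 1.02, 1.84, 2.51 and 6.38 per kb between the outermost sites of each length. Running numbers of sites came at 4.79, 3.44, 2.51 and 0.704 per kb. Of the running numbers, 17.0%, 20.7%, 16.7% and 12.1% were listed. In the last length, where there were 4 listed sites, 299 cluster numbers were used. Its longest gap, of 25.6 kb, spanned 170 cluster numbers without a listed site. If the numbers are read as above, reads were present in the 3′ part in many clusters without a listed site, and the promoter side had fewer clusters, with more sites in each. A cluster is read as a group of overlapping reads, so dense reads can join into fewer clusters. The numberings are therefore not separate measures, and nothing more is read from their opposite directions.

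**Figure D4:**
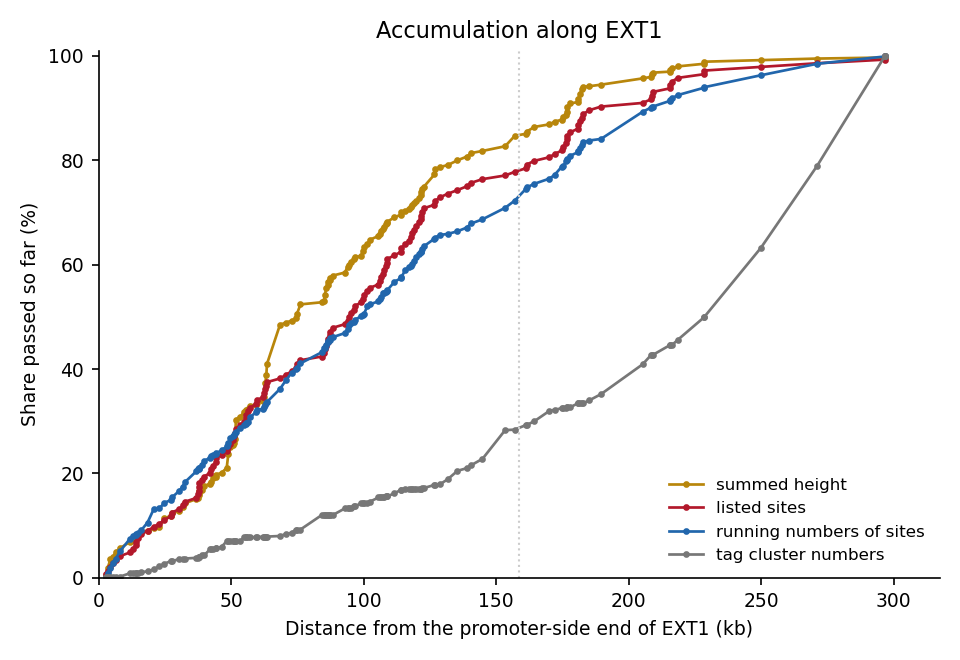
Share of the gene's summed height (gold), listed sites (red), running numbers of sites (blue) and tag cluster numbers (grey) passed so far, in percent, against distance in kb from the promoter-side end, with a point at each site and a dotted line at 50% of the length. At that line 77.8% of sites and 84.7% of the height have been passed, while the grey curve gains most of its rise after it.

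EXT1, with 144 sites, held more than any other window of its length in the list. When each strand of each chromosome was cut end to end into windows of the gene's length, the fullest of the 5384 windows with a site held 106, and the median held 6. Windows begun at every site, leaving out those that overlap the gene, reached 120. For windows of 100 kb begun at every site, the fullest in EXT1 held 88 sites and the fullest elsewhere 85. EXT1 therefore led at both lengths, by 24 sites at the length of the gene and by 3 sites at 100 kb. The gene was picked for its dense sites in this list and set the longer window length, so the lead is only a description.

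EXT1 did not lead in every measure of density. It was set beside all 128 stretches of at least 50 sites, a stretch being neighbouring sites that share their strand, none of them over 50 kb from the next. The stretch that contains the EXT1 sites had 4.90 sites per 10 kb from first to last site and was 10th by this density, while the other 127 ran from 1.32 to 6.62 with a median of 2.95. It was 2nd by number of sites and 2nd by median height, after a stretch on chromosome 12 with a median of 25. It was 1st by median expected height, at 1.27, with the other 127 between 0.38 and 1.24. By the median of height over expected height it was 46th, at 23.3, with a median of 22.5 among the others. By median gap, 942 nt, it was 29th shortest, with a median of 1201 nt and quartiles of 981 and 1556 nt among the others. It was 17th by the share of sites in the promoter-side 50% of the stretch, at 76.4%, with a median of 62.5% and quartiles of 53.0% and 71.7% among the others. Of the other 127, 105 had over 50% of their sites on that side. In a stretch, that side is the upstream 50% by strand between its first and last site, and no promoter was located.

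By tag clusters, EXT1 was near the end of the range. The share of sites in clusters of 2 or more, 78.5%, was 2nd, with a median of 56.0% among the others. Cluster numbers per kb, 2.75, were 8th lowest, with a median of 4.75 among the others. Running numbers per kb, 2.91, were 4th highest, with a median of 1.17, and the share of them listed, 16.8%, was 4th lowest, with a median of 25.2%. Over the 128 stretches, which share libraries, Spearman's rho between cluster numbers and running numbers per kb was -0.84. Since the numberings are not separate measures, it is given as a description.

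The 3 other stretches with the most sites differed from EXT1 in different ways. EXT1 had 144 sites over 294 kb, against 147 over 664 kb in the minus-strand stretch of chromosome 1 that runs from 246053100 to 246716619, which had 2.22 sites per 10 kb and a median height of 14. The sites of that stretch lay more evenly than those of EXT1, with 76.4% in the promoter-side 50% in EXT1 and 52.4% in that stretch. On chromosome 8, the plus-strand stretch that runs from 128807605 to 129101574 was the nearest of the 3 to EXT1 in density, at 4.08 sites per 10 kb, and in height. It had 120 sites over 294 kb, the span of the EXT1 sites, with a median height of 21.5, an expected height of 1.04 and 16.7% of its running numbers listed. Its promoter-side share was 58.3%. Also on chromosome 8, the minus-strand stretch that runs from 131150381 to 131454816 had 116 sites over 304 kb, a median height of 15 and a promoter-side share of 67.2%. The tallest site was 414 in EXT1, against 94, 150 and 88 in the 3 stretches.

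**Figure D5:**
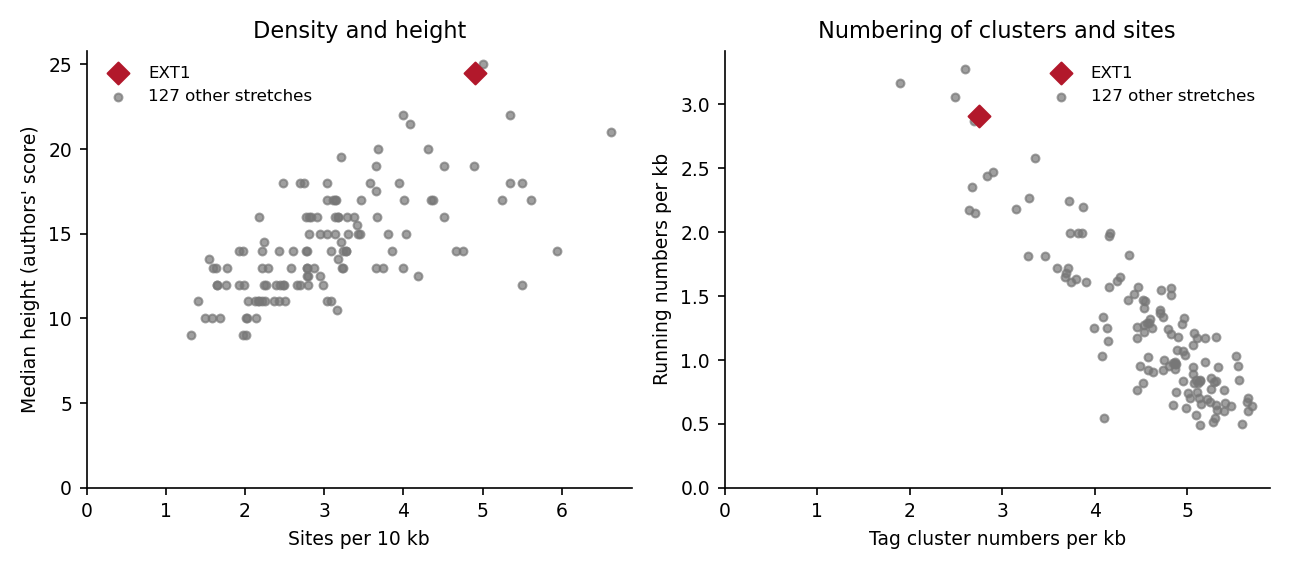
The stretch of EXT1 sites (red diamond) and the 127 other stretches of at least 50 sites (grey points), by sites per 10 kb and median height (left) and by tag cluster numbers and running numbers of sites per kb (right). EXT1 is 10th by density and 2nd by median height, and in the right panel 8th lowest by cluster numbers and 4th highest by running numbers.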

How the data were processed

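iCLIP of hnRNPM was made from 2 libraries of HMLE cells. The score deposited by the authors is 1 whole number per site, and it equals the PH field of the site's name in every row. Positions are on GRCh37, the build named in the submitters' processing notes. How reads were aligned, how duplicates were treated and how sites were called is not given in the sources used here. This list names no library and was taken as pooled, which the sources do not state.

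Sites were placed by the middle of their 21 nt, and distances run from the high end of the span. Named sites were the 10 tallest, the first and the last, the fullest tag clusters and the 3 longest gaps; named stretches were the 3 others with the most sites. The gene, lists and measures were chosen with earlier results of these data known. Shares have 95% Wilson intervals, and medians were judged by order-statistic intervals; both cover counting error only. No genome or annotation of GRCh37 was used, so exons, introns, motifs and repeats were not analysed here. A set of 7 measures (among them site number, gaps, promoter-side share and merging) was checked on a simulated list and recovered exactly. Python 3.11.15, numpy 2.4.6, pandas 2.3.3 and scipy 1.17.1 were used.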

Additional observations from a re-analysis of the deposited data

How the results depend on the processing

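Of 24 values recomputed for EXT1 with another choice of sites or windows, 19 differed from those reported by less than 1.5 times (counts) or by less than their 95% interval (other values). Several of these 19 could hardly have differed. The stretch in place of the gene span held the same 144 sites, so site number, median height and median ratio had to repeat. The better-scoring 50% of the list kept 140 of the 144 sites. With only the tallest site of each tag cluster kept, the median height was 36, the median of height over expected height 36.1, the median gap 3195 nt and the share of height in the 10 tallest sites 45.5%; the alternative leaves 63 of the 144 sites, by its construction. With summed height in place of sites, the promoter-side share was 84.7%. The ranks among stretches moved with the set of stretches, an alternative chosen after seeing the data. Among the 17 stretches of at least 100 sites EXT1 was 4th by promoter-side share, 2nd by density and 1st by median height. Among the 728 of at least 20 sites it was 91st, 50th and 11th in the same order. With gaps of at most 100 kb it was 32nd by promoter-side share and 6th by density among 154 stretches, and with gaps of at most 20 kb, which cut off its last sites, it was 21st by promoter-side share and 4th by density among 68. Its promoter-side share was then 65%, against 76.4% with those sites. No paired analysis was possible because both libraries belong to the same group and the deposited heights are not split between them; leaving out a replicate was not possible either. The unknown depth leaves no way to say how many low sites towards the 3′ end went without even a running number.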
